A study of Mus musculus with 7 samples.

Results

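The genes described here encode heat shock proteins and DNAJ co-chaperones. They were taken from the deposited table by symbol, as every Hspa, Hspb, Hspd1, Hspe1, Hsph1, Hsp90, Dnaja, Dnajb and Dnajc gene followed by its number, together with Cryab. The rule found 73 of the 23847 rows, each symbol once. RNA came from ventricular lysate of male mice in which the aorta had been narrowed with a suture (trans-aortic banding, TAB, 3 libraries) or exposed without tying it (Sham, 4 libraries). The protocol puts the operation at 8 weeks of age, and the age label of all samples is 12 weeks. The interval to tissue collection is not stated, and no strain, genotype or drug is given in the labels. Whether each library stands for an animal of its own is not labelled, and the p-values therefore measure only how far these libraries spread.

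Heat shock proteins bind unfolded or partly folded proteins and keep them from clumping. HSP70 proteins do so in cycles driven by ATP, which DNAJ proteins start by delivering the client and stimulating the ATPase, and which HSP110 proteins help to reset by exchanging the nucleotide. HSP90 takes over clients such as kinases and steroid receptors, the HSPD1 and HSPE1 ring folds proteins inside mitochondria, and small heat shock proteins hold clients without ATP. In muscle, small heat shock proteins such as CRYAB and HSPB7 bind sarcomere and intermediate filament proteins. Many genes of these families can be induced by the transcription factor HSF1, which binds heat shock elements, inverted repeats of the bases GAA.

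Promoter sequences are shown for 7 genes that are described below. Hspb6, Hspb7 and Dnaja4 were higher in TAB. Hsph1, Hspb1 and Hspa1a varied from library to library. Hspe1 shares its promoter region with Hspd1. Each line gives the 250 bases before the RefSeq gene start and the first 30 after it, from RefSeq on GRCm38.p6, 5′ to 3′ in the direction of the gene. Capitals mark matches to a pair of heat shock units, GAANNTTC or TTCNNGAA, where N is any base, each of which reads the same on both strands.
Hspb6 (chr7:30553051-30553330, plus strand): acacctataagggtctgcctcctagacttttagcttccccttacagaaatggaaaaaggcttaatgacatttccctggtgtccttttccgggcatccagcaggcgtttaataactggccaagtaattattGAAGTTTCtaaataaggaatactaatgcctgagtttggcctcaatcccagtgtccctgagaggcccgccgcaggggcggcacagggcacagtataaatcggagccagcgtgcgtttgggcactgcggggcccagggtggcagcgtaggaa
Hspb7 (chr4:141420529-141420808, plus strand): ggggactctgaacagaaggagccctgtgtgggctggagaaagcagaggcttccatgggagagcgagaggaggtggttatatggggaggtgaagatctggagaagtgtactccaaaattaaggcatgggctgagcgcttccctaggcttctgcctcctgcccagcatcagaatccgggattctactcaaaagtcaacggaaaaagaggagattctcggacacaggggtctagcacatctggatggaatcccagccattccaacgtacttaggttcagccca
Dnaja4 (chr9:54699309-54699588, plus strand): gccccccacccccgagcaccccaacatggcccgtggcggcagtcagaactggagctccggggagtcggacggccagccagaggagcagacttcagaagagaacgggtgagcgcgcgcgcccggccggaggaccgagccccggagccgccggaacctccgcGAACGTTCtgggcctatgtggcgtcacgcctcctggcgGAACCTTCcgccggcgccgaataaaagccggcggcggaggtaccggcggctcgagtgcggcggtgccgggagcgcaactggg
Hsph1 (chr5:149636286-149636565, minus strand): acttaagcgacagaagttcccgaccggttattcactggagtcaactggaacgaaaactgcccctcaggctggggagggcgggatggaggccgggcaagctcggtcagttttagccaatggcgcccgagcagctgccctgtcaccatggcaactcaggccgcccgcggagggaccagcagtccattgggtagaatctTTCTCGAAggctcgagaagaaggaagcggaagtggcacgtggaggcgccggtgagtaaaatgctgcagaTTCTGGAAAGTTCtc
Hspb1 (chr5:135887669-135887948, plus strand): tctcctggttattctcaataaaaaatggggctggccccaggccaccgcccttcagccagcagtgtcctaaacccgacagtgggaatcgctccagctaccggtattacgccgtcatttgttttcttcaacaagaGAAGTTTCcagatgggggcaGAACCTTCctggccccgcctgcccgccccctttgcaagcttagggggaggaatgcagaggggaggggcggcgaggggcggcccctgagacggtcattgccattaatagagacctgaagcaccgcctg
Hspa1a (chr17:34972127-34972406, minus strand): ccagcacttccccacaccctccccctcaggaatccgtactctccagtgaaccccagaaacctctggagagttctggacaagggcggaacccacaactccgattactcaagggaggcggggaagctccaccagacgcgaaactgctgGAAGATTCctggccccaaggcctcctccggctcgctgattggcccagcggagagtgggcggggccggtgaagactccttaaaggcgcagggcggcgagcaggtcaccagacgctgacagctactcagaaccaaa
Hspe1 (chr1:55087898-55088177, plus strand): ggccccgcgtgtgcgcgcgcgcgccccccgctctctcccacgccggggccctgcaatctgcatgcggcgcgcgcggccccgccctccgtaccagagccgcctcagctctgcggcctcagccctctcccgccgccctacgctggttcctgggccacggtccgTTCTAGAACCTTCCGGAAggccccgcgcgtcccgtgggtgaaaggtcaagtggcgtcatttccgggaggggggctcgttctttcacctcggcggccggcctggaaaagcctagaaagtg
The Hspe1 sequence has a run of alternating units from position -89, counted back from the gene start. The RefSeq window of Hspd1, on the opposite strand, overlaps that of Hspe1 by 285 bases and holds the same run. In Hspb1 the matches began at -117 and -97, in Dnaja4 at -90 and -52, in Hspb6 at -120 and in Hspa1a at -104. Hsph1 had a match at -54 and a longer one from 16 bases after the start. No match lay in the window of Hspb7. Windows of 300 bases were available for 58 of the 73 genes, and 16 of these, or 27.6%, held such a pair of units, against 17.0% of all 27025 genes with a window. A run of 3 alternating units (GAANNTTCNNGAA or TTCNNGAANNTTC, which includes a pair) was present in 4 of the 58, or 6.90%, against 0.662% of all genes. Those 4 were Hspd1, Hspe1, Hsph1 and Dnajb6. The run that Hspd1 and Hspe1 share was counted for each of them, here and in the counts by call. Among members with a window, 6 of 9 called higher in TAB held a pair, 1 of 5 called lower and 8 of 37 not called. For runs of 3 units the counts were 0 of 9, 1 of 5 and 3 of 37. A gene with several windows was counted if any held a match, as for Dnajb4, whose window at its deposited start held none. The higher genes Cryab, Dnajc2 and Dnajc11 had no window. These matches describe the letters in the windows and were not tested as binding sites.

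Values are FPKM, fragments normalized by the authors for transcript length and sequencing depth, so levels can be compared between genes. The columns summed to 510016 to 535455 FPKM, and the whole-fragment steps of low values put the depth at 10.8 to 12.2 M (mega) fragments per library. A member was tested where at least 3 of the 7 libraries reached 1 FPKM, which 64 of the 73 did. The other 9 were Hspb9, Dnajb3, Dnajb7, Dnajb8, Dnajb13, Dnajc5b, Dnajc5g, Dnajc6 and Dnajc22, all under 0.4 FPKM in each library, with Dnajb8 and Dnajc5g listed at 0 throughout. Log2 fold changes are TAB minus Sham on the scale log2(FPKM + 1), which understates the change of low genes, and a gene was called where limma's p, adjusted over all 11601 tested rows, was under 0.05. The ventricular light chain Myl2 stood at 22000 to 26061 FPKM and lymphocyte markers were near 0 in each library. Atrial markers (Sln, Myl7 and Myl4) summed to 282 FPKM in Sham 2 and 302 FPKM in TAB 3 against 31.9 to 133 FPKM in the other libraries, so counts are also given without that pair.

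A minority of the genes differed between TAB and Sham, and the clearest difference was a rise of 5 of the 8 tested small heat shock protein genes. Of the 64 tested members 12 were higher in TAB, 5 were lower and 47 were not called. The called share of 26.6% compares with 20.3% of all tested rows (13.3% higher and 7.05% lower). The median log2 fold change was 0.05 for the members and 0.05 for all tested rows. Among small heat shock proteins 5 of 8 were higher. Of the 11 HSP70 genes 1 was higher and 1 lower, of 3 HSP110 and 3 HSP90 genes none was called, and of the 2 chaperonin genes 1 was lower. Of 37 tested DNAJ genes 6 were higher and 3 lower, a called share of 24.3%. No TAB library reached into the Sham range in 16 of the 17 called members, a separation that the call itself favours. Of all 64 tested members every TAB library lay above every Sham library in 13 and below in 9. Over all tested rows this was so in 19.9% and 11.2%.

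**Figure D1:**
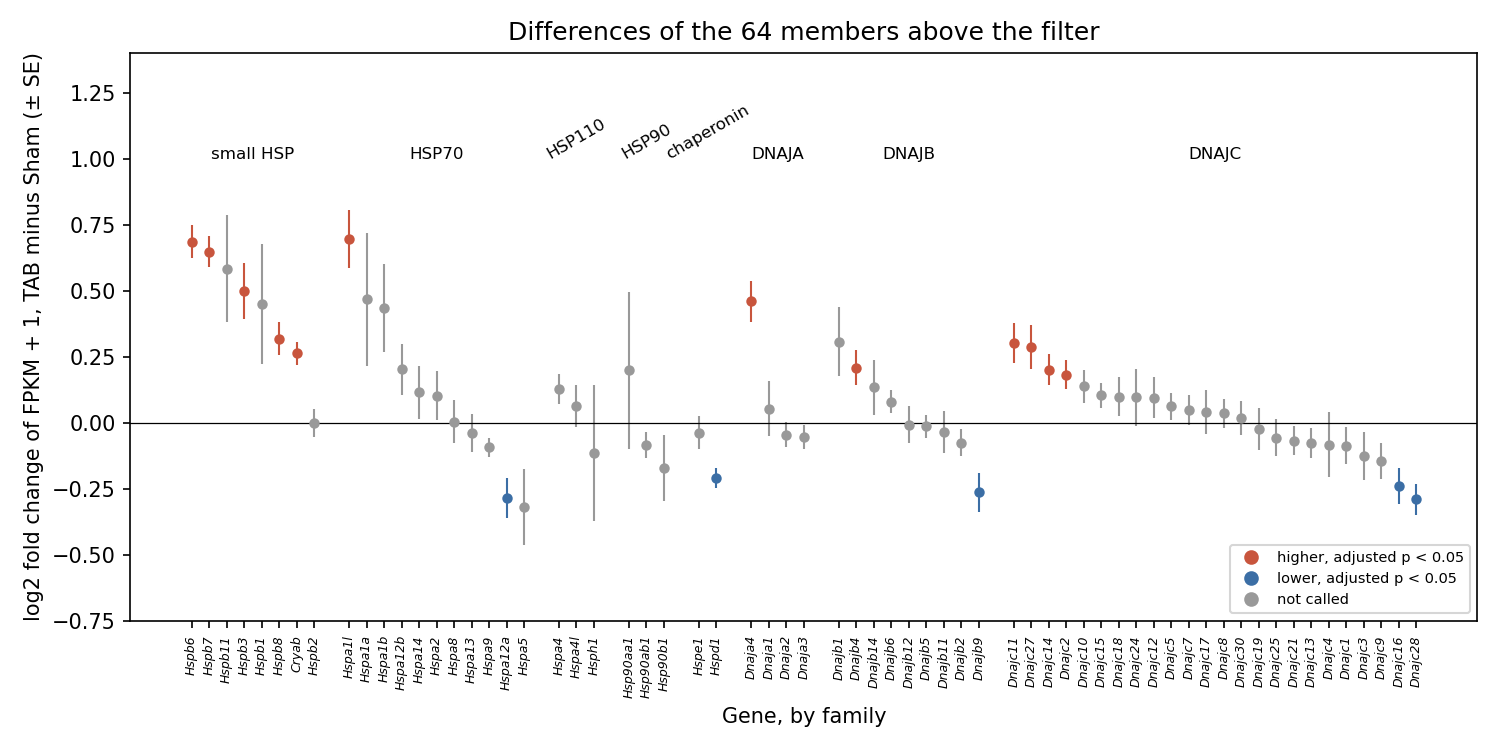
Log2 fold change of FPKM + 1 (TAB minus Sham, bars ± SE from limma) of the 64 tested members, by family and in descending order within each family. Red points were called higher (12), blue points lower (5) and grey points were not called, and the small heat shock proteins hold 5 of the 12 higher genes.

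Of the 17 calls, 7 were kept under each of 18 alternative analyses, namely those of Hspb6, Hspb7, Hspb8, Cryab, Dnaja4, Hspa1l and Hspd1. Without TAB 1, 10 members were called, 7 higher and 3 lower, while over all rows 1440 were called, 860 higher and 580 lower. Without Sham 4 the lower members numbered 3 and the lower rows 716, and without TAB 2 they numbered 2 and 714. With Sham 2 and TAB 3 left out, 13 members were called. That fit called 9 members higher, beside 8.33% of all rows, and 4 lower, beside 3.52%, or 11.9% of rows in either direction. Of all rows, 1542 were higher and 818 lower, but 1126 and 1190 after median-of-ratios rescaling and 1045 and 1225 after quantile normalization. Under either scaling 8 members were higher and 6 lower.

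By summed level the small heat shock proteins were the most abundant family. Their 9 genes summed to 3951 ± 164 FPKM (SD, n = 4) in Sham and 5445 ± 265 FPKM (SD, n = 3) in TAB, a ratio of 1.38. They made up 47.5% ± 1.97 (SD, n = 4) of the FPKM of all 73 genes in Sham and 56.3% ± 0.50 (SD, n = 3) in TAB. Sums of the other families differed less: HSP70 genes gave 1851 ± 173 FPKM in Sham and 1765 ± 125 FPKM in TAB, and HSP90 genes 934 ± 84.7 FPKM and 888 ± 86.0 FPKM. The chaperonin pair stood at 420 ± 16.6 FPKM in Sham and 379.9 ± 11.3 FPKM in TAB. DNAJC genes summed to 560.5 ± 16.6 FPKM and 574 ± 5.12 FPKM, DNAJB genes to 268 ± 2.68 FPKM and 275 ± 8.24 FPKM, DNAJA genes to 237 ± 4.59 FPKM and 249 ± 12.9 FPKM, and HSP110 genes to 95.6 ± 9.31 FPKM and 99.3 ± 12.6 FPKM. All 73 genes together made up 1.61% of the summed FPKM of Sham and 1.84% of that of TAB. No test was run on these sums.

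**Figure D2:**
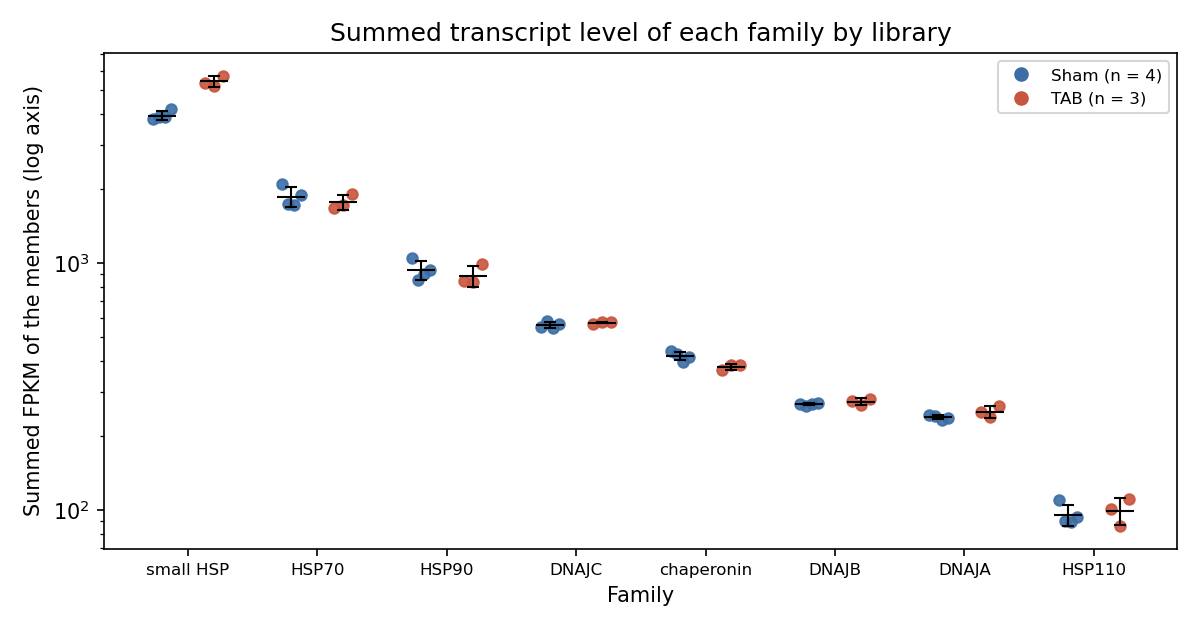
Summed FPKM of the members of each family on a log axis, with 1 point per library, and the mean ± SD of each group as black bars. The small heat shock proteins lie at 3818 to 4190 FPKM in the 4 Sham libraries and at 5223 to 5738 FPKM in the 3 TAB libraries, and the groups overlap in the HSP70, HSP90, HSP110 and DNAJ sums.

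Hspb6, which encodes a small heat shock protein of heart and smooth muscle, rose the most among the small heat shock proteins. It stood at 677, 743, 762 and 844 FPKM in Sham 1 to 4 and 1237, 1219 and 1184 FPKM in TAB 1 to 3. The TAB libraries lay close together and well above each Sham library (1.60-fold, limma log2 fold change 0.68 ± 0.06 SE, adjusted p = 0.000138). Hspb7, a heart-enriched gene whose product protects sarcomere proteins from aggregation, was at 871, 955, 987 and 1035 FPKM in Sham 1 to 4 and 1529, 1418 and 1571 FPKM in TAB 1 to 3. No Sham library reached the lowest TAB library, and TAB was 1.57-fold higher (limma log2 fold change 0.65 ± 0.06 SE, adjusted p = 0.000125). Cryab encodes alpha-B-crystallin, a chaperone of desmin and other filaments, and was the most abundant member. Its values were 1548, 1581, 1559 and 1658 FPKM in Sham 1 to 4 and 1829, 1863 and 2019 FPKM in TAB 1 to 3, again without overlap (1.20-fold, limma log2 fold change 0.26 ± 0.04 SE, adjusted p = 0.00277).

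Hspb8, whose product works with the co-chaperone BAG3 in clearing damaged filament proteins, stood at 319.004, 304, 307 and 320.998 FPKM in Sham 1 to 4 and 395, 349 and 431 FPKM in TAB 1 to 3. Every TAB library was above every Sham library (1.25-fold, limma log2 fold change 0.32 ± 0.06 SE, adjusted p = 0.00553). Hspb3, a muscle gene of low level, was at 12.6, 14.8, 11.7 and 16.0 FPKM in Sham 1 to 4 and 19.2, 18.0 and 22.2 FPKM in TAB 1 to 3. TAB was 1.44-fold higher with no overlap (limma log2 fold change 0.50 ± 0.11 SE, adjusted p = 0.0092), and the call was lost only without both Sham 1 and TAB 3 (log2 fold change 0.38, adjusted p = 0.0705). In bulk tissue fewer cells of a type and less RNA per cell cannot be told apart. Of 9 ventricular cardiomyocyte markers 1 (Actn2) was higher in TAB, 5 were lower and 3 were not called, and their summed level was 54950 to 59440 FPKM in Sham and 52380 to 58720 FPKM in TAB. Marker sums of fibroblasts (397 to 456 FPKM in Sham, 491 to 626 FPKM in TAB) and of smooth muscle and pericytes (239.9 to 248 and 268 to 303 FPKM) were higher in each TAB library. Of these markers 5 of 7 and 4 of 7 were called higher, none lower. The sums of macrophage markers (3 of 6 higher, 126 to 138 FPKM in Sham and 139 to 185 FPKM in TAB) and of blood markers (2 of 2 higher, 144 to 214 and 286 to 364 FPKM) also did not overlap. The blood marker Alas2 and the macrophage markers Lyz2, Cd14 and Mrc1 did overlap on their own. Most of the macrophage sum was Lyz2, at 86.2 to 126 FPKM over all libraries and not called. The part of these cells in the rise of the 5 small heat shock protein genes was not tested.

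**Figure D3:**
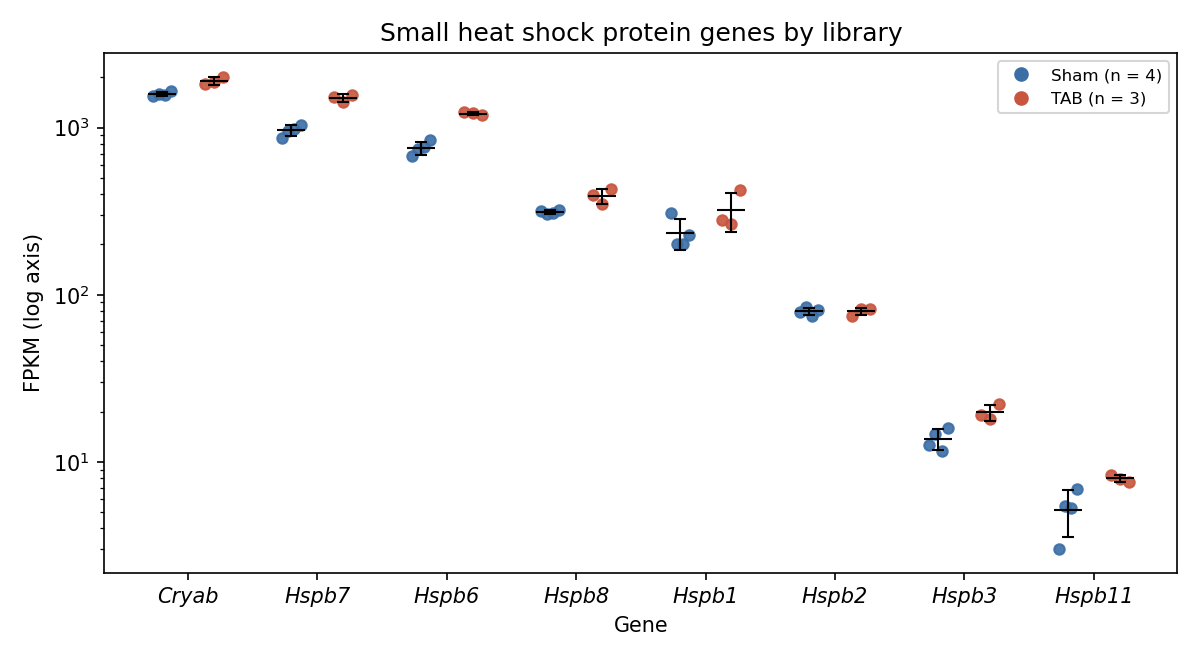
FPKM of the 8 tested small heat shock protein genes on a log axis, with 1 point per library (Sham 1 to 4, TAB 1 to 3 from left to right) and the mean ± SD of each group as black bars. The groups are separate in Cryab, Hspb7, Hspb6, Hspb8, Hspb3 and Hspb11 and overlap in Hspb1 and Hspb2.

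Hspb1, Hspb2 and Hspb11 were not called. Hspb1 encodes the stress-inducible HSP27 (HSP25 in mice), which binds actin. It was at 307, 202, 202 and 228 FPKM in Sham 1 to 4 and 281, 265 and 422 FPKM in TAB 1 to 3. Sham 1 lay among the TAB values and TAB 3 far above them, so that the groups overlapped (limma log2 fold change 0.45 ± 0.23 SE, adjusted p = 0.231). Without Sham 1 and TAB 3, a pair chosen after their values were seen, the log2 fold change was 0.38 (adjusted p = 0.00999), and without Sham 2 and TAB 3 it was 0.18 (adjusted p = 0.627). Of the transcript 50-mers of Hspb1, 48.8% also occur in the pseudogene Hsp25-ps1, so its value is less certain. Hspb11, which despite its name is known as a subunit of the intraflagellar transport complex of cilia, stood at 3.02, 5.43, 5.28 and 6.90 FPKM in Sham 1 to 4 and 8.41, 7.94 and 7.57 FPKM in TAB 1 to 3. All TAB values were above those of Sham, of which Sham 1 was the lowest (limma log2 fold change 0.58 ± 0.20 SE, adjusted p = 0.0843), and the gene was called without Sham 1 (log2 fold change 0.39, adjusted p = 0.0219) or without Sham 4 (0.72, adjusted p = 0.0231).

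Hspb2, a muscle small heat shock protein next to Cryab, was not called. Its values were 79.1, 84.2, 74.9 and 80.6 FPKM in Sham 1 to 4 and 74.9, 82.1 and 82.0 FPKM in TAB 1 to 3, with groups that overlapped fully (limma log2 fold change -0.00 ± 0.05 SE, adjusted p = 0.992). The genes lie head to head on chromosome 9 and are transcribed away from each other, Hspb2 at chr9:50751072-50752354 and Cryab at chr9:50752758-50756633 (mm10), with 403 bases between them in the deposited coordinates. The ratio of Cryab to Hspb2 was 18.8 to 20.8 in the Sham libraries and 22.7 to 24.6 in the TAB libraries, which did not overlap. In GENCODE M21 longer transcript forms of Cryab share 252 exon bases with Hspb2 on the opposite strand, 30.2% of the exon bases of Hspb2. Libraries were stranded, but whether strand was used in counting is not given in the sources used here.

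In another pair of head-to-head neighbours only the larger gene was called. Hspd1 and Hspe1 encode the large and the small ring protein of the mitochondrial chaperonin, HSP60 and HSP10, and lie 215 bases apart on chromosome 1 (chr1:55077834-55087932 and chr1:55088148-55091317). Hspd1 stood at 271, 267, 257 and 256 FPKM in Sham 1 to 4 and 226, 227 and 228 FPKM in TAB 1 to 3. The TAB libraries differed by little among themselves and all lay below Sham, and Hspd1 fell by 0.21 ± 0.04 SE on the log2 scale (limma adjusted p = 0.00404). Hspe1, with the run of heat shock units shown above between the genes, was at 167, 159, 142 and 160.2 FPKM in Sham 1 to 4 and 141, 160.3 and 157 FPKM in TAB 1 to 3. Its groups overlapped (limma log2 fold change -0.04 ± 0.06 SE, adjusted p = 0.713). The ratio of Hspd1 to Hspe1 was 1.60 to 1.81 in Sham and 1.42 to 1.60 in TAB, with TAB 1 just above Sham 4. Pseudogenes hold 39.7% of the 50-mers of Hspd1 and 36.1% of those of Hspe1.

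In a further pair, Hspa1l and Hspa1a, the levels were low. Hspa1l encodes an HSP70 protein known from the testis, and Hspa1a, 546 bases away on chromosome 17 and transcribed in the other direction, the classical heat-inducible HSP70. Hspa1l was at 5.59, 3.86, 4.88 and 4.73 FPKM in Sham 1 to 4 and 8.47, 7.15 and 9.37 FPKM in TAB 1 to 3. Every TAB library exceeded every Sham library (1.75-fold, limma log2 fold change 0.70 ± 0.11 SE, adjusted p = 0.00185). GENCODE lists a transcript on the opposite strand, Gm10501, over 71.9% of the exon bases of Hspa1l, so that the strand of these fragments matters for its identity. Hspa1a was at 1.49, 0.458, 0.774 and 0.775 FPKM in Sham 1 to 4 and 1.43, 0.825 and 2.69 FPKM in TAB 1 to 3, with TAB 3 and Sham 1 on top and overlapping groups (limma log2 fold change 0.47 ± 0.25 SE, adjusted p = 0.232). At the estimated depth this corresponds to about 15 to 95 fragments per library. Its near-identical neighbour Hspa1b stood at 1.19, 0.615, 0.397 and 0.371 FPKM in Sham 1 to 4 and 1.18, 0.894 and 1.50 FPKM in TAB 1 to 3 and was not called (limma log2 fold change 0.43 ± 0.17 SE, adjusted p = 0.0921). They share 60.4% of the 50-mers of Hspa1a with each other or with Hspa1l, so reads may have been split between them.

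**Figure D4:**
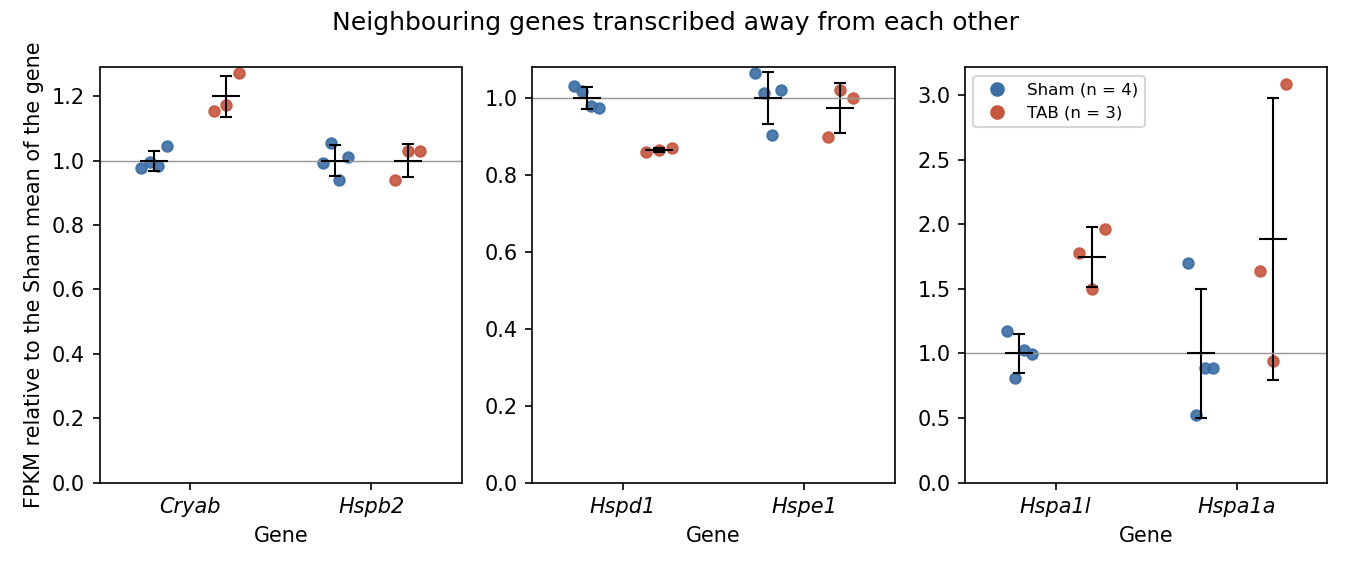
FPKM of neighbouring genes that are transcribed away from each other, each divided by its own Sham mean, with 1 point per library and the mean ± SD of each group. Cryab is higher in TAB while Hspb2 overlaps, Hspd1 is lower while Hspe1 overlaps, and Hspa1l is higher while Hspa1a varies widely within both groups.

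The abundant HSP70 and HSP90 genes of the cytosol were not called, nor were the HSP110 genes. Hspa8, the constitutive HSP70 of the cytosol, was at 1246, 1036, 1040.3 and 1163 FPKM in Sham 1 to 4 and 1048, 1073 and 1251 FPKM in TAB 1 to 3, and the groups overlapped fully (limma log2 fold change 0.00 ± 0.08 SE, adjusted p = 0.982). Its log2 fold change turned to -0.05 after median-of-ratios rescaling and to -0.06 after quantile normalization. Hsp90ab1, the constitutive HSP90, was at 631, 575, 614 and 632 FPKM in Sham 1 to 4 and 558, 559 and 615 FPKM in TAB 1 to 3. Most TAB values lay under those of Sham but TAB 3 did not (limma log2 fold change -0.09 ± 0.05 SE, adjusted p = 0.253), and the gene was called lower only without Sham 2 and TAB 3 (log2 fold change -0.16, adjusted p = 0.0489). The HSP110 genes Hspa4 and Hspa4l, nucleotide exchangers of HSP70, had means of 49.3 ± 1.36 and 19.6 ± 1.62 FPKM (SD, n = 4) in Sham and 54.0 ± 4.30 and 20.5 ± 2.07 FPKM (SD, n = 3) in TAB. Neither was called (adjusted p = 0.139 and 0.638), though Hspa4 was without TAB 2 (log2 fold change 0.19, adjusted p = 0.0215). Of the 50-mers of Hspa8, 67.3% recur in pseudogenes or other genes.

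Other HSP70 genes were lower in level. Hspa12a and Hspa12b encode distant relatives with an atypical ATPase domain. Hspa12a was at 8.19, 9.21, 7.62 and 7.96 FPKM in Sham 1 to 4 and 6.14, 6.42 and 7.19 FPKM in TAB 1 to 3. Each TAB library was under each Sham library (limma log2 fold change -0.29 ± 0.08 SE, adjusted p = 0.0243). The call was lost with the replicate block and without Sham 2, TAB 1 or TAB 2 (p after adjustment between 0.0580 and 0.0984). Hspa12b, known from endothelial cells, was at 11.7, 11.5, 13.1 and 11.7 FPKM in Sham 1 to 4 and 15.7, 14.9 and 11.5 FPKM in TAB 1 to 3, where TAB 1 and TAB 2 were high and TAB 3 was within the Sham range (limma log2 fold change 0.20 ± 0.10 SE, adjusted p = 0.165). It was called higher without TAB 3 (log2 fold change 0.33, adjusted p = 0.0149). Of 7 endothelial markers 3 were higher, 0 lower and 4 not called. Their summed level was 1283 to 1816 FPKM in Sham and 1212 to 1446 FPKM in TAB. Most of that sum was Fabp4, at 989 to 1603 FPKM over all libraries. Pecam1, Cdh5, Tie1 and Egfl7 were higher in each TAB library than in any Sham library, while Fabp4, Kdr and Tek overlapped. The part of these cells in Hspa12b was not tested. Hspa2, Hspa13 and Hspa14 stood at 1.83 to 13.4 FPKM and were not called (adjusted p = 0.486, 0.741 and 0.462).

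Several heat-inducible genes differed more between libraries of the same group than between the groups. Hsp90aa1, the inducible HSP90, was at 141, 81.9, 85.0 and 91.7 FPKM in Sham 1 to 4 and 104, 84.1 and 160.3 FPKM in TAB 1 to 3. Sham 1 and TAB 3 stood apart from the rest, while the other 5 libraries lay between 81.9 and 104 FPKM (limma log2 fold change 0.20 ± 0.30 SE, adjusted p = 0.698). Of the 50-mers of Hsp90aa1, 50.1% recur in pseudogenes or other genes, so its value is less certain. Hsph1, an inducible HSP110, was at 36.7, 20.7, 23.5 and 26.0 FPKM in Sham 1 to 4 and 22.5, 18.7 and 32.9 FPKM in TAB 1 to 3, with the same pair on top (limma log2 fold change -0.12 ± 0.26 SE, adjusted p = 0.797). Its highest library exceeded its lowest 1.96-fold, that of Hsp90aa1 1.96-fold, that of Hspb1 2.09-fold and that of Hspa1a 5.89-fold.

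Sham 1 and TAB 3 were the 2 highest libraries in 11 of the 64 tested members, or 17.2%, against 3.04% of all tested rows. This pattern was chosen after the values were seen. The 11 were Hspa1a, Hspa1b, Hsp90aa1, Hsph1, Hspb1, Hsp90b1, Hspa8, the HSP70 partner Dnaja1, Dnajb11, Dnajc3 and Dnajc25. In the last 6 of these the highest library exceeded the lowest 1.21-fold to 1.55-fold. Sham 1 exceeded the mean of the other Sham libraries 2.22-fold in Hspa1a, 1.64-fold in Hsp90aa1, 1.57-fold in Hsph1 and 1.46-fold in Hspb1. TAB 3 exceeded the mean of the other TAB libraries 2.39-fold, 1.70-fold, 1.59-fold and 1.54-fold in the same genes. In contrast Dnajb1, a DNAJ partner of HSP70 that heat also induces, was lowest in Sham 1, at 4.92, 7.50, 5.47 and 6.59 FPKM in Sham 1 to 4 and 8.32, 8.52 and 6.47 FPKM in TAB 1 to 3 (limma log2 fold change 0.31 ± 0.13 SE, adjusted p = 0.133), and was called only without Sham 2 or without Sham 2 and TAB 3 (lowest adjusted p = 0.0200). Atrial markers were high in Sham 2 and TAB 3, not in Sham 1, where they summed to 52.3 FPKM. The labels give no time of surgery or tissue handling for any library, and no cause was tested.

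**Figure D5:**
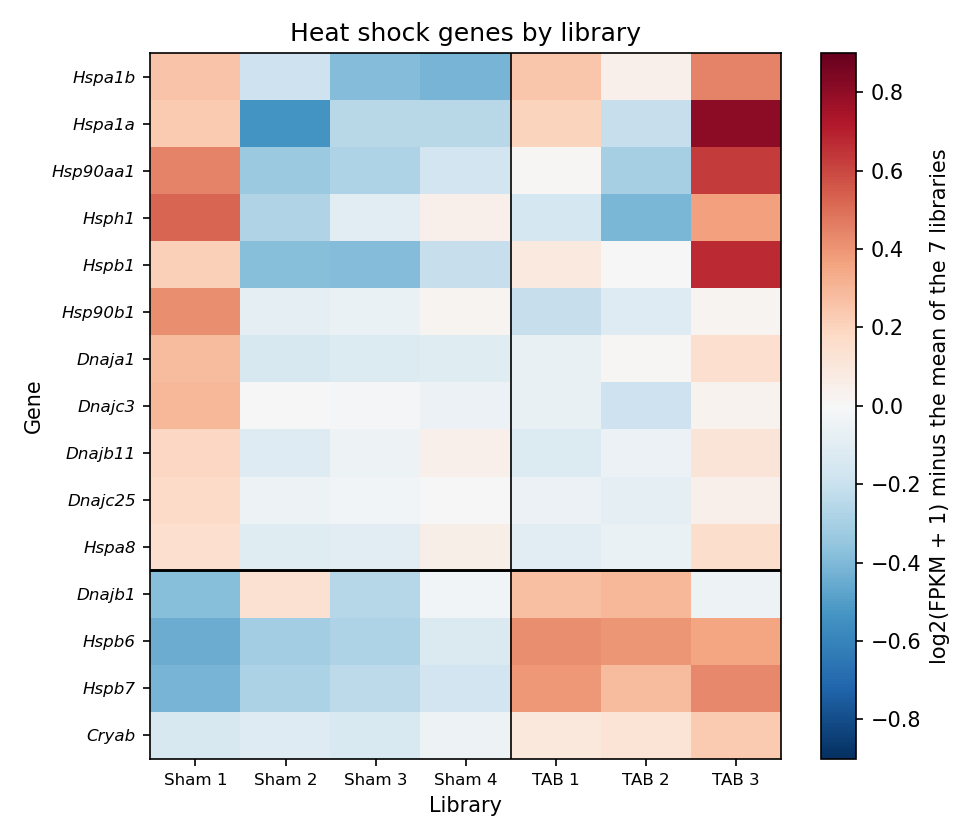
Log2(FPKM + 1) of each library minus the mean of all 7 libraries, for the 11 members whose 2 highest libraries were Sham 1 and TAB 3 (above the black line) and for Dnajb1, Hspb6, Hspb7 and Cryab (below it). Red is above and blue below the mean of the gene. The upper genes are above their mean in Sham 1 and TAB 3, while Hspb6, Hspb7 and Cryab divide by group. In some upper genes TAB 3 is only slightly above the mean, as in Hsp90b1 (212 FPKM, beside 211 FPKM in Sham 4).

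Without Sham 1 and TAB 3, 12 members were called, beside 11.1% of all rows. Of these 9 were higher, beside 7.25% of rows, and 3 lower, beside 3.81%. Hspb6, Hspb7, Hspb8, Cryab, Dnaja4 and Hspa1l were higher in that fit, together with Hspb1, Hspb11 and Hspa12b (adjusted p = 0.00999, 0.0387 and 0.0345). Lower were Hspd1, Hspa12a and Hspa5.

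Of 10 members assigned to the endoplasmic reticulum 1 was lower, 0 higher and 9 were not called by limma. This is near the 7.05% lower and 13.3% higher of all tested rows. The median log2 fold change of the 10 was -0.06. No place was assigned to 25 tested members, among them Dnajc14, Dnajc16 and Dnajc25, so this count may not be complete. Hspa5, the HSP70 of the reticulum known as BiP, was at 464, 319.113, 306 and 344 FPKM in Sham 1 to 4 and 266, 280.2 and 304 FPKM in TAB 1 to 3. All TAB values were under those of Sham, and Sham 1 was the highest of these (limma log2 fold change -0.32 ± 0.14 SE, adjusted p = 0.171). The gene was not called without Sham 1 alone (log2 fold change -0.19, adjusted p = 0.0628) and, among the alternatives, was called only without both Sham 1 and TAB 3 (-0.24, adjusted p = 0.0385). Hsp90b1, the HSP90 of the reticulum, was at 279, 196, 199 and 211 FPKM in Sham 1 to 4 and 180.0, 192 and 212 FPKM in TAB 1 to 3, with Sham 1 on top and overlapping groups (limma log2 fold change -0.17 ± 0.13 SE, adjusted p = 0.385). The gene called lower among these 10 was Dnajb9, a BiP partner induced in the unfolded protein response. It was at 28.6, 24.1, 23.9 and 25.6 FPKM in Sham 1 to 4 and 23.2, 20.2 and 19.9 FPKM in TAB 1 to 3. Each TAB library was below each Sham library (limma log2 fold change -0.26 ± 0.07 SE, adjusted p = 0.0301). Its call was lost without Sham 1, Sham 4, TAB 2 or TAB 3 (p after adjustment between 0.0575 and 0.106). The BiP partners Dnajb11, Dnajc3 and Dnajc10 were at 24.4 to 30.5, 13.2 to 18.9 and 12.9 to 16.0 FPKM and were not called (adjusted p = 0.796, 0.357 and 0.146).

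Of 8 members assigned to mitochondria 1 was higher, 1 lower (Hspd1) and 6 were not called, a called share of 25.0% beside 20.3% of all tested rows. Dnajc4 and Dnajc28 were among the members without an assigned place, so this count too may not be complete. Dnajc28 was called lower and Dnajc4 was not called. Hspa9, the HSP70 of the matrix, was at 326, 332, 316 and 329 FPKM in Sham 1 to 4 and 305, 309 and 301 FPKM in TAB 1 to 3. All TAB libraries were lower than all Sham libraries, by a small margin (limma log2 fold change -0.09 ± 0.04 SE, adjusted p = 0.0985). It was called lower after median-of-ratios rescaling (log2 fold change -0.14, adjusted p = 0.0174) and after quantile normalization (-0.14, adjusted p = 0.00957). Dnajc11, an outer membrane protein linked to the complex that shapes the cristae, was the gene called higher among these 8. It was at 24.5, 24.8, 23.9 and 22.2 FPKM in Sham 1 to 4 and 29.5, 26.2 and 33.6 FPKM in TAB 1 to 3 (limma log2 fold change 0.30 ± 0.08 SE, adjusted p = 0.0194). The groups did not overlap, and the call was lost without TAB 1 or TAB 3 (adjusted p = 0.0609 and 0.0700). Dnaja3, the partner of HSPA9, and Dnajc15 and Dnajc19, which act at the import motor of the inner membrane, were not called. They stood at 69.2 to 76.6, 119 to 138 and 68.0 to 89.7 FPKM (adjusted p = 0.433, 0.161 and 0.87).

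Among DNAJ genes of the A and B classes the firmest rise was that of Dnaja4. This HSP70 partner was at 48.0, 45.9, 42.3 and 46.2 FPKM in Sham 1 to 4 and 59.7, 57.3 and 73.0 FPKM in TAB 1 to 3. TAB was 1.39-fold higher without overlap (limma log2 fold change 0.46 ± 0.08 SE, adjusted p = 0.00303). In GENCODE 44.1% of its exon bases lie opposite exons of Wdr61, which stood at 20.6 ± 1.02 FPKM (SD, n = 4) in Sham and 21.2 ± 0.550 FPKM (SD, n = 3) in TAB and was not called (adjusted p = 0.676). The closest relative in sequence class and role, Dnaja1, was not called at 20.5, 15.1, 15.3 and 15.4 FPKM in Sham 1 to 4 and 15.9, 16.8 and 18.7 FPKM in TAB 1 to 3 (limma log2 fold change 0.05 ± 0.10 SE, adjusted p = 0.766), and neither was Dnaja2 at 92.4 to 105 FPKM (adjusted p = 0.539). Dnajb4 was called higher (limma log2 fold change 0.21 ± 0.07 SE, adjusted p = 0.0454), at 61.1, 66.7, 71.3 and 65.4 FPKM in Sham 1 to 4 and 77.8, 69.8 and 82.3 FPKM in TAB 1 to 3. TAB 2 lay below Sham 3, the only overlap among the called members. The call was lost without Sham 1, Sham 2, Sham 4, TAB 1 or TAB 3 (p after adjustment between 0.0757 and 0.166) and under either scaling (adjusted p = 0.121 and 0.0758). Dnajb6, mutated in a human limb-girdle muscular dystrophy, was at 39.8, 37.6, 38.4 and 38.4 FPKM in Sham 1 to 4 and 40.0, 40.0 and 42.3 FPKM in TAB 1 to 3, where each TAB library was above each Sham library by a small margin (limma log2 fold change 0.08 ± 0.05 SE, adjusted p = 0.244). Dnajb2 and Dnajb5 stood at 42.7 to 49.5 and 37.6 to 40.4 FPKM and were not called (adjusted p = 0.322 and 0.851).

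DNAJC genes share only the J domain. Of 24 tested 4 were higher, 2 lower and 18 not called, a called share of 25.0% near the 20.3% of all tested rows, and in 23 of those 24 the ratio of TAB to Sham lay between 0.8 and 1.25. Dnajc28 fell the most, at 23.6, 21.2, 22.2 and 20.5 FPKM in Sham 1 to 4 and 18.1, 17.9 and 17.0 FPKM in TAB 1 to 3, with no overlap (limma log2 fold change -0.29 ± 0.06 SE, adjusted p = 0.00674). The call was lost only without both Sham 1 and TAB 3 (adjusted p = 0.0569). Dnajc16 was lower as well (9.21 ± 0.574 FPKM (SD, n = 4) in Sham and 7.65 ± 0.511 FPKM (SD, n = 3) in TAB, adjusted p = 0.0315). Higher beside Dnajc11 were Dnajc27, a small GTPase with a J domain (4.24 ± 0.386 FPKM (SD, n = 4) in Sham and 5.39 ± 0.518 FPKM (SD, n = 3) in TAB, adjusted p = 0.035), Dnajc14 (7.77 ± 0.293 FPKM (SD, n = 4) in Sham and 9.08 ± 0.337 FPKM (SD, n = 3) in TAB, adjusted p = 0.036) and the ribosome-associated Dnajc2 (13.5 ± 0.579 FPKM (SD, n = 4) in Sham and 15.4 ± 0.127 FPKM (SD, n = 3) in TAB, adjusted p = 0.0374), all limma values. In GENCODE 17.0% of the exon bases of Dnajc14 lie opposite exons of Ormdl2, which was itself called higher (limma log2 fold change 0.25 ± 0.08 SE, adjusted p = 0.0465).

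These smaller DNAJC calls lay near the threshold and were lost when any of several libraries was left out, at log2 fold changes close to those of all 7 libraries. The call of Dnajc16 was lost without Sham 3, Sham 4, TAB 1 or TAB 2 (p after adjustment between 0.0552 and 0.101, log2 fold change -0.24 to -0.19) and that of Dnajc27 without Sham 1, Sham 3, TAB 1 or TAB 3 (0.0726 to 0.127, at 0.24 to 0.28). For Dnajc14, leaving out Sham 1 alone kept the call, and leaving out any other library ended it (0.0646 to 0.103, at 0.17 to 0.22). Dnajc2 kept it only without Sham 3 (0.0668 to 0.104 otherwise, at 0.16 to 0.19). Dnajc2, Dnajc14 and Dnajc27 also lost their calls after median-of-ratios rescaling (adjusted p = 0.111, 0.0971 and 0.0577). The most abundant DNAJC gene not yet described, Dnajc8, stood at 45.6 to 52.5 FPKM (adjusted p = 0.709).

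Genes that work with these chaperones were called about as often as all tested rows. Of 62 related genes found in the table, 60 were tested, 4 were higher, 7 lower and 49 not called, a called share of 18.3% beside 20.3% of all rows (13.3% higher, 7.05% lower), with a median log2 fold change of 0.03. Fkbp5, an HSP90 co-chaperone induced by glucocorticoids, rose from 19.2 ± 2.04 FPKM (SD, n = 4) in Sham and 26.1 ± 1.98 FPKM (SD, n = 3) in TAB (limma log2 fold change 0.42 ± 0.08 SE, adjusted p = 0.00592). Its relative Fkbp4, which brings steroid receptors to HSP90, fell by 0.25 ± 0.04 SE on the log2 scale (195 ± 1.33 FPKM (SD, n = 4) in Sham and 165 ± 6.41 FPKM (SD, n = 3) in TAB, limma adjusted p = 0.00207). Pfdn1 and Pfdn4, subunits of the actin and tubulin chaperone prefoldin, rose (log2 fold changes 0.32 ± 0.05 and 0.26 ± 0.08 SE, limma adjusted p = 0.00167 and 0.0459), while none of the 8 genes of the TRiC chaperonin was called. Bag2, an exchange factor of HSP70, rose by 0.27 ± 0.06 SE (adjusted p = 0.0139). Bag3, the partner of HSPB8, was at 93.1, 89.4, 92.8 and 95.6 FPKM in Sham 1 to 4 and 96.3, 104 and 108 FPKM in TAB 1 to 3, above Sham in each TAB library but not called (limma log2 fold change 0.14 ± 0.05 SE, adjusted p = 0.0576).

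The 6 other related genes that fell encode the HSP90 co-chaperone Aarsd1 (-0.28 ± 0.05 SE on the log2 scale, limma adjusted p = 0.00457), the mitochondrial protease subunits Clpx (-0.27 ± 0.05, 0.00497) and Clpp (-0.18 ± 0.06, 0.046), the mitochondrial HSP90 Trap1 (-0.14 ± 0.04, 0.025), the HSP90 regulator Fnip1 (-0.32 ± 0.09, 0.0229) and the BiP exchange factor Sil1 (-0.26 ± 0.07, 0.0251). Calls were lost when single libraries were left out for Clpp (any but Sham 2, adjusted p from 0.0519 to 0.146), Pfdn4 (any but Sham 4 or TAB 1, 0.0786 to 0.142), Fnip1 (any but Sham 4 or TAB 1, 0.0508 to 0.0794) and Trap1 (Sham 2, Sham 3, TAB 1 or TAB 2, 0.0504 to 0.0966). The same held for Sil1 (Sham 3, TAB 1 or TAB 3, 0.0588 to 0.0966) and Bag2 (TAB 1 or TAB 3, 0.0515 to 0.0667). The count was 7 without Sham 3 or TAB 3, and 6 without either pair that includes TAB 3. None of 3 heat shock factor genes was called, and Hsf1 and Hsf2 stood at 13.3 to 15.1 and 6.35 to 7.80 FPKM (adjusted p = 0.357 and 0.294). Sham 1 and TAB 3 were the 2 highest libraries in 7 of the 60 related genes, or 11.7%, beside 3.04% of all tested rows. The 7 were Ahsa1, Ahsa2, Chordc1, Serpinh1, St13, Stip1 and Tcp1.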

How the data were processed

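A table of FPKM values, with each library in its own column, was deposited, for which the submitters' processing notes list TopHat, Cufflinks and the build mm10. Which versions, annotation and between-library scaling they used is not given in the sources used here. Columns were matched to samples by the name quoted in each description. Start positions are printed from 1, since 12096 of 21244 genes began exactly 1 base below RefSeq. Depth was estimated from low values of genes with 1 GENCODE M21 transcript of 3000 to 6000 bases, of which 62.2% to 70.5% fell within 5% of whole fragments.

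On the scale log2(FPKM + 1), the rows with at least 1 FPKM in at least 3 of 7 libraries were fitted with limma 3.58.1 in R 4.3.3 (eBayes with trend and robust), as a two-sided test. Its p-values were adjusted by Benjamini and Hochberg's method across the 11601 rows, and 0.05 was the threshold. Members, families and lists were chosen with earlier results of these data known. Named are all called members, all tested heat shock proteins, the 3 most abundant uncalled DNAJ genes per class, called related genes, and others said to be chosen after their values. On simulated data for this comparison (11601 rows), 38% of 1.25-fold, 84% of 1.5-fold, 92% of 2-fold and 100% of 3-fold changes were recovered, with 6 false calls. The folds were set on FPKM + 1 in 50 rows each, far fewer than the 2360 rows called in the data. Noise was drawn separately for each row and library, without outlying libraries. Recovery in the real libraries may therefore differ. Alternatives were pseudocounts of 0.1 and 0.5, no filter, a mean FPKM of at least 5, quantile normalization, median-of-ratios rescaling, array weights, plain eBayes (no trend, not robust), a block for the replicate number, and fits that left out single libraries or the pair Sham 2 and TAB 3. Leaving out Sham 1 and TAB 3 was added after seeing the data. The share of transcript 50-mers found in other genes used GENCODE M21.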

Additional observations from a re-analysis of the deposited data

Results flagged for a closer look

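In 3 of the 64 tested members the highest Sham library, Sham 1 in each case, stood further from the other Sham libraries than Dixon's 95% critical value for 4 samples allows. Chance alone flags about 1 in 20 groups, and 3 of 64 is near that share. In Sham 1 Dnaja1 reached 20.5 FPKM, whereas Sham 2 to 4 lay at 15.1 to 15.4 FPKM (gap of 0.930 of the range). Dnajc3 was at 18.9 FPKM against 14.5 to 15.1 FPKM (0.876). Hsp90aa1 was at 141 FPKM against 81.9 to 91.7 FPKM (0.836). None of these genes was called in the comparison of TAB with Sham. More generally, Sham 1 was the highest Sham library in 25 of the 64 members, or 39.1%, and in 23.9% of all tested rows. TAB 3 was the highest TAB library in 36 of the 64, or 56.2%, and in 30.1% of all tested rows.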

How the results depend on the processing

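With the replicate number as a block 11 members were called (8 higher, 3 lower), 1892 rows in all and 8 related genes. The labels do not state a pairing, so the main fit used no block. Deviations from the group means of same-numbered samples correlated at 0.081, 0.17 and 0.17. TAB 2 and TAB 3 correlated best with the Sham library of the same number, and TAB 1 with Sham 3 (0.10). These values do not settle whether the numbers pair the samples. Without a filter 3 members were lower. Without Sham 2 and TAB 3, 1353 rows were called (951 higher, 402 lower) and 6 related genes. Without Sham 1 and TAB 3 the numbers were 1266, 830 and 436 rows, 3 members lower and 6 related genes. With single libraries left out, 1440 (without TAB 1) to 2080 rows were called (860 to 1364 higher, 547 to 716 lower), 10 to 14 members (7 to 11 higher, 2 to 4 lower) and 7 to 11 related genes. The log2 ratio of summed FPKM of TAB to Sham moved by more than the spread of the libraries only after median-of-ratios rescaling, from 0.04 to -0.013 for DNAJB and from 0.03 to -0.016 for DNAJC. With single libraries left out it was 0.42 to 0.49 for small heat shock proteins, -0.17 to -0.12 for the chaperonin pair and, in the order DNAJA, DNAJB, DNAJC, HSP110, HSP70 and HSP90, 0.033 to 0.11, 0.017 to 0.060, 0.022 to 0.052, -0.034 to 0.15, -0.13 to -0.0067 and -0.16 to -0.011. Among the genes named with values, log2 fold changes changed sign in 29 cases over 11 genes, none of them called. Uncalled members outside these whose sign also varied were Dnajb12, Dnajc17, Dnajc30, Dnajc4 and Dnajc7. Under rescaling the named genes were Hspa8 (-0.046) and Dnajc8 (-0.014), under quantile normalization Hspa8 (-0.061), with array weights Hspa8 (-0.0088) and with the block Hspb2 (0.0047). Without Sham 2 and TAB 3 they were Dnaja1 (-0.048), Dnajb5 (0.00021), Dnajc19 (0.069), Hspa8 (-0.11), Hsp90aa1 (-0.14) and Hspb2 (0.0041), and without Sham 1 and TAB 3 Hspa8 (-0.024). Over the fits without a single library the values ranged from -0.0080 to 0.15 for Dnaja1, -0.10 to 0.021 for Dnajb11, -0.044 to 0.0070 for Dnajb5, -0.090 to 0.041 for Dnajc19, -0.33 to 0.056 for Hsph1, -0.080 to 0.021 for Hspa13, -0.076 to 0.056 for Hspa8, -0.058 to 0.40 for Hsp90aa1, -0.087 to 0.017 for Hspe1 and -0.030 to 0.042 for Hspb2. The causes were not tested. At the estimated depth Hspa1a and Hspa1b rest on 13 to 95 fragments per library, which limits what can be seen in them.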
